A study of Mus musculus with 20 samples.

Results

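The 10 genes described here are immediate early response genes: Fos, Fosb, Jun, Junb, Jund, Egr1, Atf3, Ier2, Dusp1 and Btg2. They were matched by symbol to the gene identifiers of the count data, where they make up 10 of 55487 identifiers, and all 10 were found. The set was chosen by its readout: it was put together around Fos, which was picked because its level differed between estrus and diestrus in ctrl mice. The values of that contrast are therefore given as a description, without a test, for every member. The line comparisons and the stage comparison in FL1 mice were tested.

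Immediate early genes are transcribed within minutes of a stimulus without need for new protein synthesis, because the factors that switch them on are already present in the resting cell and only have to be phosphorylated. Many of their transcripts carry destabilizing elements and are lost quickly, so that a level in frozen tissue reflects the time shortly before freezing. In granulosa cells (GCs), which line the follicle and nourish the oocyte, gonadotropins raise cAMP and activate ERK, and several immediate early transcription factors are known to take part in the response to luteinizing hormone.

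The study compared GCs of the Dummerstorf control line (ctrl) with GCs of the Dummerstorf high fertility line 1 (FL1). Both mouse lines came from the same founder population, and the ctrl line was bred without selection. FL1 was bred for litter size and litter weight at birth, and in later generations for litter size only. The 20 female mice were 77 ± 5 days old and formed 4 groups of 5 mice, namely ctrl mice in estrus, ctrl mice in diestrus, FL1 mice in estrus and FL1 mice in diestrus. The sources used here name no hormone or other treatment of the mice, and the stage was read from vaginal smears. From each mouse 7 to 10 of the largest follicles were opened and the mural GCs of these follicles were pooled and snap-frozen, so that each library stands for 1 mouse. According to the study's methods the mice were killed by inhalation of carbon dioxide or nitrogen. Follicles were isolated from the removed ovaries in buffered saline, and the cells were centrifuged before freezing. The part of these steps in the levels of the members was not tested. Because the lines were separated by selective breeding, a difference between them cannot be assigned to a single gene.

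Libraries were made from the 3′ ends of transcripts, and each held 5446576 to 8257041 reads on genes. All levels are CPM, counts scaled to a common library size after TMM normalization, given as mean ± SD over the 5 mice of a group, and individual values are listed in the order of replicates 1 to 5. Reads of 3 per library, which correspond to 0.344 to 0.547 CPM, were taken as the floor of detection, with counting error only. The granulosa markers were strongly expressed, with Inha at 2725 to 7880 CPM and Foxl2 at 256 to 650 CPM over the 20 mice, whereas Amh, also a granulosa marker, had a median of 2.37 CPM. Of 6 cumulus markers, Has2, Ptx3 and Ptgs2 each had a median of 0 and Tnfaip6 one of 1.19 CPM, whereas Slc38a3 had a median of 54.7 CPM and Amhr2 one of 228 CPM, and all 5 neutrophil markers were at 0 in ctrl mice in estrus, with a summed level of at most 2.75 CPM in any library. Oocyte transcripts were not absent, with a summed level of 8 markers of 55.6 to 549 CPM. In bulk samples such as these, fewer cells of a type and less RNA per cell cannot be told apart.

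The promoters of Fos, Dusp1, Btg2 and Junb are shown because Fos led the choice of the set, Dusp1 had the widest line difference in estrus among the members that passed the filter on low counts, and Junb and Btg2 varied together most closely among mice. Each sequence holds the 250 bases before the RefSeq start of the gene (GRCm38.p6), read in the direction of transcription. Capitals mark the cAMP response element TGACGTCA, its half-site TGACG on either strand, and the TATA box TATAAA on the strand of the gene.
Fos, chr12:85473640-85473889, plus strand: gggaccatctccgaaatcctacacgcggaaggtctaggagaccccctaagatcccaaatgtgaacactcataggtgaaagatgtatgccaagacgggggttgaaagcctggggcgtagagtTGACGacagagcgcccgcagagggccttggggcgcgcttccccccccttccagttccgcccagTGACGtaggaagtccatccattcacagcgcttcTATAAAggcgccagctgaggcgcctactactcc
Dusp1, chr17:26508473-26508722, minus strand: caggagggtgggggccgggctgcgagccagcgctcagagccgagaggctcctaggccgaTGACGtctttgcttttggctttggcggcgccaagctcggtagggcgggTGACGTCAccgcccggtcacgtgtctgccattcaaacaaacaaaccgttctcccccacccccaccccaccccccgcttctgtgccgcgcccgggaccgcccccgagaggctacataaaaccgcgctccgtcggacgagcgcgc
Btg2, chr1:134079156-134079405, minus strand: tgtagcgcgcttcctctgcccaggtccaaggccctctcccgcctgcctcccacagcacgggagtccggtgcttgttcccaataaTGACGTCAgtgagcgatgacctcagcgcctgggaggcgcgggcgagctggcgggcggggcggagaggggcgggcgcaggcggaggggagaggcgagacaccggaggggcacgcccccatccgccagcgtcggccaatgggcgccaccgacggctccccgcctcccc
Junb, chr8:84978749-84978998, minus strand: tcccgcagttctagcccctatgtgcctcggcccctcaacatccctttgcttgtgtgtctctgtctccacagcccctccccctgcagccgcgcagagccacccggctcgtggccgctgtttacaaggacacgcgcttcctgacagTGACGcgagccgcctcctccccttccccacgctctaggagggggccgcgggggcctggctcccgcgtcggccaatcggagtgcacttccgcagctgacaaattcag

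Promoters of 8 of the 10 members were examined, while those of Egr1 and Ier2 were not used here. The full element TGACGTCA was present in the promoters of Btg2 and Dusp1, beginning 166 and 143 bases upstream of the start, respectively, and in 1.55% of 32851 promoters of the same length. The half-site TGACG, searched on both strands and contained in the full element, was found in 6 of the 8 members, namely Fos, Fosb, Junb, Atf3, Dusp1 and Btg2, against 17.8% of all promoters. In Fos it began 129 and 66 bases upstream, with the TATA box following 33 bases upstream of the start, and TATAAA was found on the strand of the gene in 7.59% of all promoters. The variant TGACATCA was found 45 bases upstream of Jun (2.93% of all promoters held TGACATCA or TGATGTCA). Neither the AP-1 site TGANTCA (6.75% of all promoters) nor the CArG box that binds serum response factor (1.47%) occurred in these windows of the 8 members. The window of Jund lies before the RefSeq start, which is upstream of the gene start in the annotation, and the windows of Dusp1 and Atf3 lie inside the annotated genes, which start farther upstream. These matches are a description of letters and not of bound sites.

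Fos (chr12:85473890-85477273, plus strand) encodes the founding subunit of the AP-1 transcription factor, which binds DNA as a dimer with a Jun protein. In ctrl mice in estrus Fos was at 5.40, 8.08, 6.88, 8.56 and 6.07 CPM, and in ctrl mice in diestrus at 24.0, 37.2, 28.6, 55.8 and 48.9 CPM. All 5 ctrl mice in diestrus were thus above all 5 ctrl mice in estrus, and the means were 38.9 ± 13.4 and 7.0 ± 1.3 CPM, with a fitted fold of 5.50 (log2 difference 2.46). As this contrast picked Fos, no test is given. In this contrast 1.36% of 12850 genes passed an adjusted p of 0.05 and 3.66% had groups that did not overlap, from which nothing is read for the members.

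In FL1 mice the Fos levels were more widely scattered. In estrus they were 15.9, 4.88, 11.9, 17.2 and 5.27 CPM (11.02 ± 5.77) and in diestrus 12.8, 42.2, 15.4, 8.89 and 46.0 CPM (25.1 ± 17.6). Replicates 2 and 5 in diestrus lay above every FL1 mouse in estrus, while the other 3 lay within the range in estrus, so that the groups overlapped. The log2 difference between diestrus and estrus in FL1 mice was 1.17 (SE 0.52, 95% CI 0.08 to 2.25) with an unadjusted p of 0.0366 and an adjusted p of 0.482 by edgeR's quasi-likelihood test. Fos therefore did not pass the threshold in FL1 mice. It was at 0.84 without replicate 5 in diestrus and at 1.38 without replicate 4 in estrus. The difference between the stage effects of the lines, FL1 minus ctrl, was −1.29 on the log2 scale and is given without a test, since it contains the contrast that picked Fos.

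Between the lines Fos did not pass the test in either stage, where it has to be kept in mind that the ctrl mice also entered the contrast that picked Fos. In estrus FL1 mice were at a log2 difference of 0.65 to ctrl mice (95% CI −0.52 to 1.83, adjusted p = 0.771), and in diestrus at −0.63 (95% CI −1.53 to 0.28, adjusted p = 1.000). The order of the group means was ctrl in estrus, FL1 in estrus, FL1 in diestrus and ctrl in diestrus, and each group overlapped its neighbour in this order.

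**Figure D1:**
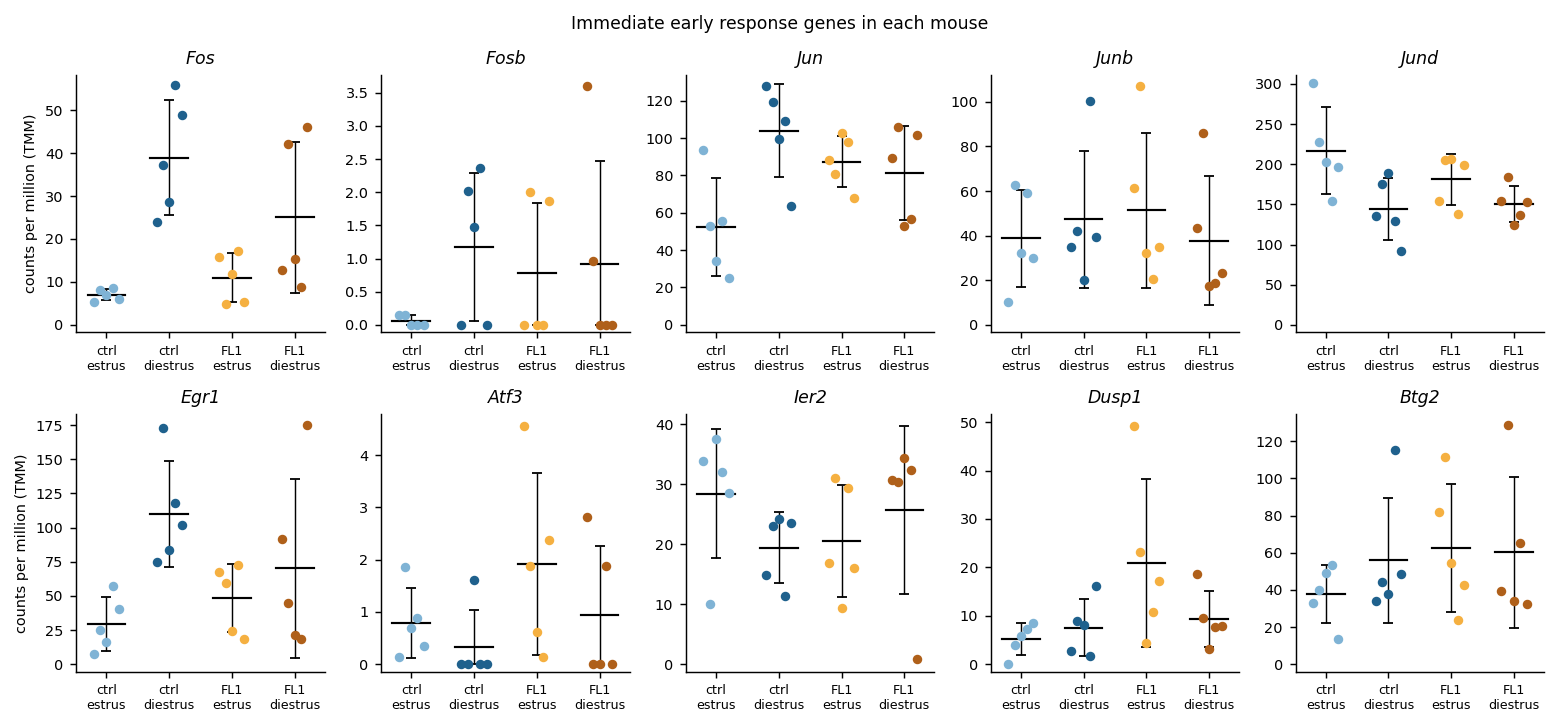
Levels of the 10 members in each mouse, in CPM after TMM scaling (linear axes, 1 panel per gene), with points for the 5 mice of each group and black bars for mean and SD. The SD bars end at 0 where they would pass below it. Fos in the 5 ctrl mice in diestrus lies between 24.0 and 55.8 CPM, above all ctrl mice in estrus, and Ier2 of FL1 replicate 5 in diestrus stands apart at 0.855 CPM.

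Fosb (chr7:19302696-19310051, minus strand), a close relative of Fos, was hardly detected. No read was found in 11 of the 20 libraries, and the largest count was 23 reads. In ctrl mice in estrus it did not exceed 0.155 CPM, which is a single read, while replicates 2, 3 and 4 of the ctrl mice in diestrus held 11 to 15 reads (1.47 to 2.37 CPM). In FL1 mice it was at 2.004 and 1.87 CPM in replicates 2 and 5 in estrus and at 3.60 and 0.961 CPM in replicates 1 and 2 in diestrus, with no read in the other 6. Fosb did not pass the filter on low counts in any comparison. The exact permutation test (two-sided, smallest possible p 0.00794) gave p = 0.444 for the lines in estrus, p = 0.683 for the lines in diestrus and p = 1 for the stages in FL1 mice.

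Jun (chr4:95049034-95052222, minus strand) encodes the main dimer partner of Fos and overlaps the antisense gene Junos. In estrus the ctrl mice were at 93.8, 52.8, 34.4, 55.4 and 25.3 CPM and the FL1 mice at 88.3, 80.8, 102.5, 97.8 and 67.7 CPM. Every FL1 mouse was above 4 of the 5 ctrl mice, and only ctrl replicate 1 reached into the FL1 range. The log2 difference was 0.74 (SE 0.29, 95% CI 0.13 to 1.35) with an unadjusted p of 0.0209, which did not pass after adjustment (adjusted p = 0.328). Without ctrl replicate 1 in estrus the log2 difference was 1.06 (adjusted p = 0.107).

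In diestrus Jun was at 103.9 ± 24.9 CPM in ctrl mice and 81.3 ± 25.0 CPM in FL1 mice (log2 difference −0.35, 95% CI −0.88 to 0.18, adjusted p = 1.000). In ctrl mice the fitted level in diestrus was 1.98-fold that in estrus (log2 difference 0.98, described without a test, groups overlapping). In FL1 mice estrus and diestrus were close to each other, with a log2 difference of −0.12 (95% CI −0.62 to 0.38, adjusted p = 0.943).

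Junb (chr8:84974484-84978718, minus strand) can restrain Jun activity and overlaps Prdx2 on the other strand. The level varied more between the mice of a group than between the groups. In ctrl mice it was at 10.4 to 62.6 CPM in estrus and at 20.1 to 41.9 CPM in diestrus except for replicate 4 with 100.4 CPM. In FL1 mice replicate 2 was the highest in both stages, with 107.3 CPM in estrus (others 20.7 to 61.5) and 85.8 CPM in diestrus (others 17.2 to 43.6). These mice were different animals that share only the replicate number. The log2 differences were 0.40 between the lines in estrus (adjusted p = 0.850), −0.31 between the lines in diestrus (adjusted p = 1.000) and −0.45 between the stages in FL1 mice (adjusted p = 0.861), and the first was −0.055 without FL1 replicate 2 in estrus.

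Jund (chr8:70698949-70700616, plus strand) is the Jun gene that is expressed in resting cells and overlaps the predicted gene Gm11175 on the other strand. Its SDs were 14.9% to 27.0% of the group means, and the largest of these was lower than the largest of any other member. In single groups Fos (18.9% in ctrl mice in estrus) or Jun (23.9% in ctrl mice in diestrus, 15.9% in FL1 mice in estrus) scattered less. Jund was thus not the narrowest in each group. It was at 217 ± 54.2 CPM in ctrl mice in estrus and 144 ± 39.0 CPM in ctrl mice in diestrus, which is the opposite direction to Fos (log2 difference −0.59, described without a test, groups overlapping). In FL1 mice it was at 181 ± 32.4 and 150.4 ± 22.4 CPM (log2 difference −0.28, 95% CI −0.69 to 0.13, adjusted p = 0.747). The lines differed by −0.26 in estrus (95% CI −0.69 to 0.17, adjusted p = 0.739) and 0.07 in diestrus (95% CI −0.39 to 0.52, adjusted p = 1.000) on the log2 scale.

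Egr1 (chr18:34859823-34864984, plus strand) encodes a zinc finger transcription factor that acts on the genes of gonadotropin subunits in the pituitary and is induced by luteinizing hormone in GCs. In ctrl mice in estrus it was at 7.45, 24.9, 16.3, 57.3 and 40.4 CPM and in ctrl mice in diestrus at 74.8, 173, 83.6, 118 and 101.8 CPM. As with Fos, all ctrl mice in diestrus lay above all ctrl mice in estrus, with a fitted fold of 3.74 (log2 difference 1.90, described without a test). Fos and Egr1 were the 2 members without overlap in this contrast.

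In FL1 mice Egr1 was at 67.2, 59.6, 24.5, 72.7 and 18.7 CPM in estrus and at 91.9, 44.5, 21.1, 18.1 and 175 CPM in diestrus. The 5 FL1 mice in diestrus spanned more than the whole range in estrus, with replicate 5 above every ctrl mouse in diestrus, replicate 3 below 4 of the 5 FL1 mice in estrus and replicate 4 below all 5. The log2 difference of 0.51 between the stages (SE 0.53, 95% CI −0.59 to 1.62, adjusted p = 0.859) was −0.15 without replicate 5 in diestrus. Between the lines Egr1 was at a log2 difference of 0.73 in estrus (95% CI −0.25 to 1.71, adjusted p = 0.631) and −0.65 in diestrus (95% CI −1.67 to 0.37, adjusted p = 1.000), the latter −1.32 without FL1 replicate 5. The order of the group means was the same as for Fos.

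Atf3 (chr1:191170296-191218039, minus strand), a stress-induced factor of the ATF/CREB family, was close to the floor. No read was found in 7 of 20 libraries, all of them in diestrus, and the largest count was 29 reads in FL1 replicate 1 in estrus (4.56 CPM). In FL1 mice it was read in all 5 mice in estrus (0.141 to 4.56 CPM) and in 2 of 5 in diestrus (2.81 and 1.88 CPM). The fitted log2 difference of −1.02 between the stages had a 95% CI from −4.18 to 2.15 (adjusted p = 0.911). Between the lines it did not pass the filter on low counts, and the exact permutation test (two-sided) gave p = 0.317 in estrus and p = 0.444 in diestrus.

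Ier2 (chr8:84661331-84662852, minus strand) encodes a small nuclear protein named for its rapid induction. In ctrl mice it was at 28.4 ± 10.7 CPM in estrus and 19.4 ± 5.93 CPM in diestrus (log2 difference −0.56, described without a test, groups overlapping). In FL1 mice in diestrus it was at 30.8, 30.4, 34.4, 32.5 and 0.855 CPM. Replicates 1 to 4 were closely together, whereas replicate 5 held 5 reads against 190 to 221 in the others. In FL1 mice in estrus the level was 20.5 ± 9.33 CPM. The log2 difference between the stages was 0.32 (adjusted p = 0.932) and 0.63 without FL1 replicate 5 in diestrus (adjusted p = 0.776). The difference between the lines in diestrus was 0.42 (adjusted p = 1.000) and 0.73 without this mouse (adjusted p = 0.845), and in estrus it was −0.47 (95% CI −1.31 to 0.37, adjusted p = 0.765). In the same FL1 mouse Fos and Egr1 were the highest of their group.

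Dusp1 (chr17:26505590-26562128, minus strand) encodes a phosphatase that inactivates p38, JNK and ERK and so ends the signal that induced it. The annotated gene overlaps 2 predicted genes on the same strand and 2 genes on the other strand. Reads from the genes on the other strand cannot be told apart without the strand setting of the counting. For the genes on the same strand no strand setting would separate the reads. In estrus ctrl mice were at 0, 4.04, 5.85, 7.23 and 8.50 CPM and FL1 mice at 49.3, 23.2, 4.38, 10.7 and 17.2 CPM. In 4 of 5 FL1 mice the level was above every ctrl mouse, and replicate 3 was within their range. With a log2 difference of 2.03 (SE 0.78, 95% CI 0.39 to 3.66) this was the widest difference among the members that passed the filter on low counts, but it did not pass after adjustment (unadjusted p = 0.0180, adjusted p = 0.304). It was 1.44 without FL1 replicate 1 in estrus (adjusted p = 0.669).

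In diestrus Dusp1 was at 7.54 ± 5.84 CPM in ctrl mice and 9.34 ± 5.70 CPM in FL1 mice, with a log2 difference of 0.31 (95% CI −1.14 to 1.76, adjusted p = 1.000). In FL1 mice the level in diestrus was at a log2 difference of −1.17 to estrus (SE 0.58, 95% CI −2.39 to 0.05, unadjusted p = 0.0595, adjusted p = 0.560). This was −0.57 without FL1 replicate 1 in estrus. In ctrl mice the stages were at 5.13 ± 3.31 and 7.54 ± 5.84 CPM (log2 difference 0.55, described without a test, groups overlapping).

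Btg2 (chr1:134075170-134079120, minus strand) encodes an antiproliferative protein that recruits deadenylases to mRNA. Its level was at 37.7 ± 15.7 CPM in ctrl mice in estrus, 56.0 ± 33.6 CPM in ctrl mice in diestrus, 62.8 ± 34.4 CPM in FL1 mice in estrus and 60.1 ± 40.7 CPM in FL1 mice in diestrus. All 4 groups overlapped. The highest mice were ctrl replicate 4 in diestrus with 115.3 CPM and FL1 replicate 2 in estrus with 111.4 CPM and in diestrus with 129 CPM, which were also the highest for Junb. The log2 difference between the lines was 0.73 in estrus (95% CI −0.08 to 1.55, adjusted p = 0.529) and 0.12 in diestrus (95% CI −0.74 to 0.98, adjusted p = 1.000), and between the stages in FL1 mice −0.07 (95% CI −0.94 to 0.80, adjusted p = 0.987).

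Over the set, 8 members were tested between the lines and 9 between the stages in FL1 mice. With edgeR's quasi-likelihood test, 0 members passed an adjusted p of 0.05 in any of the 3 tested comparisons, and the same count of 0 was obtained with DESeq2 and with limma-voom. Of all genes, 0.769% passed between the lines in estrus, 0.248% between the lines in diestrus and 0.221% between the stages in FL1 mice. At an unadjusted p under 0.05 the counts of members were 2 of 8 in estrus (Jun and Dusp1), 0 of 8 in diestrus and 1 of 9 between the stages in FL1 mice (Fos), against 10.7%, 5.56% and 9.48% of all genes. None of the members tested had groups that did not overlap in these 3 comparisons, against 3.56%, 1.58% and 2.42% of all genes.

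The median log2 difference of the members was 0.69 between the lines in estrus with 6 of 8 higher in FL1 mice, against a median of 0.01 over all 13007 genes tested, of which 50.5% were higher. It was −0.12 in diestrus with 4 of 8 higher (51.3% of all genes), and −0.12 between the stages in FL1 mice with 3 of 9 higher in diestrus (51.1% of all genes), where the medians of all genes were 0.01 in both. In the contrast that picked Fos the median was 0.55 with 6 of 8 higher in diestrus (50.4% of all genes), from which nothing is read. The intervals show how large a difference could have gone unnoticed. For Jund between the lines they reached from −0.69 to 0.17 in estrus and from −0.39 to 0.52 in diestrus on the log2 scale, whereas for Dusp1 they reached from 0.39 to 3.66 in estrus and from −1.14 to 1.76 in diestrus.

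**Figure D2:**
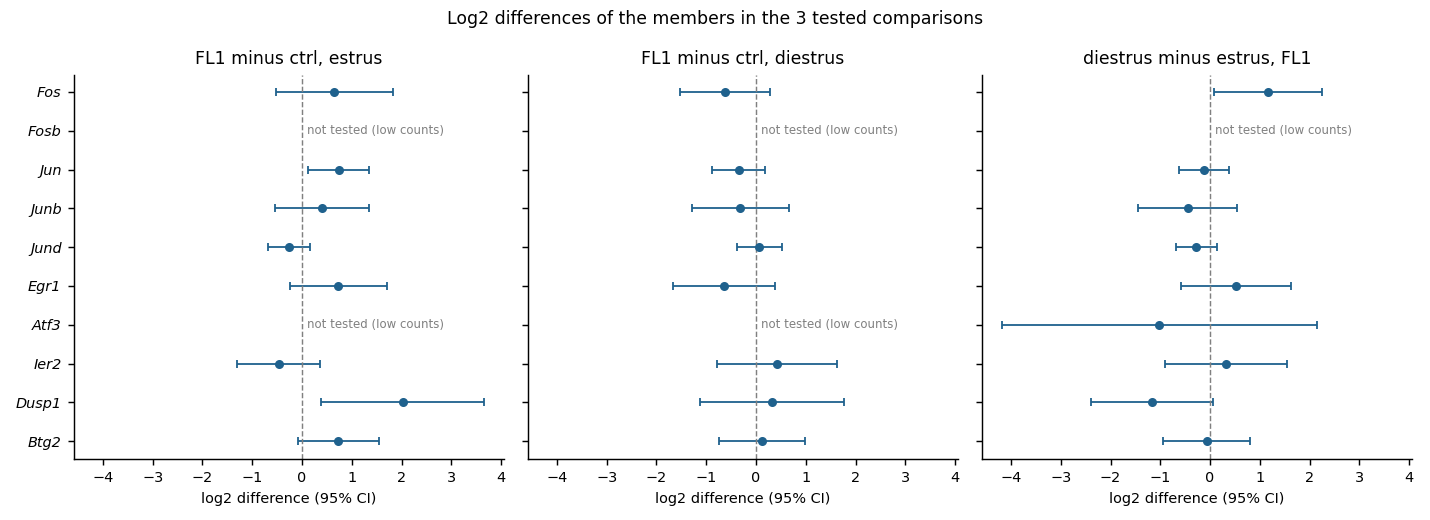
Log2 difference of each member in the 3 tested comparisons, with points for the estimate and bars for the 95% confidence interval by edgeR's quasi-likelihood fit of 10 mice each. Intervals of Jun and Dusp1 between the lines in estrus and of Fos between the stages in FL1 mice exclude 0 before adjustment, and no member passes after it.

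Markers of other cells moved with the line in estrus, and their part in the values of the members was not tested. The luteal markers had a summed level of 3581 to 9006 CPM in FL1 mice in estrus against 312 to 1483 CPM in ctrl mice in estrus, and 3 of the 5 tested, Akr1c18, Lhcgr and Prlr, passed the test as higher in FL1 mice. In estrus the sums of the ovarian surface and oviduct epithelium markers did not overlap either (12.4 to 37.0 CPM in ctrl mice and 37.4 to 101.7 CPM in FL1 mice), and higher medians in FL1 mice were found for the macrophage and leukocyte markers (55.8 and 143 CPM) and the endothelial markers (42.2 and 82.0 CPM). Of these 3 lists 0 genes passed edgeR's test between the lines in estrus, with 3, 1 and 1 higher in FL1 mice at an unadjusted p under 0.05. These were of 7, 7 and 5 genes tested, against 10.7% of all genes in either direction. In diestrus the luteal sums were 813 to 3851 CPM in FL1 mice and 491 to 1213 CPM in ctrl mice. The medians in FL1 mice in diestrus were 78.6 CPM for macrophage and leukocyte, 51.1 CPM for endothelial and 771 CPM for red blood cell markers. In ctrl mice in diestrus they were 24.7, 24.0 and 282 CPM. Of these lists 0 genes passed edgeR's test in diestrus, with 3, 1 and 3 higher in FL1 mice at an unadjusted p under 0.05, against 5.56% of all genes. Between the stages the 9 stromal, pericyte and smooth muscle markers had lower sums in diestrus in ctrl mice (289 to 991 against 627 to 1588 CPM) and scattered widely in FL1 mice in diestrus (139 to 2073 CPM). The ovarian surface and oviduct epithelium sums of FL1 mice did not overlap, with 37.4 to 101.7 CPM in estrus and 11.5 to 36.1 CPM in diestrus. In ctrl mice the medians in estrus and diestrus were 42.2 and 24.0 CPM for the endothelial and 400 and 282 CPM for the red blood cell markers. The summed level of the 10 granulosa markers was 11214 to 14587 CPM in ctrl mice in estrus and 15428 to 22266 CPM in ctrl mice in diestrus, without overlap and in the same direction as Fos and Egr1. Of these markers 7 were higher and 3 lower in diestrus in ctrl mice. The sums of the 6 cumulus markers also separated, with 372 to 448 CPM in ctrl mice in estrus and 172 to 360 CPM in ctrl mice in diestrus. Of the 3 cumulus markers that passed the filter on low counts, 2 were lower and 1 higher in diestrus. The macrophage and leukocyte markers had medians of 55.8 and 24.7 CPM in ctrl mice in estrus and diestrus, respectively. In FL1 mice the granulosa sums were 7731 to 15295 CPM in estrus and 13373 to 23610 CPM in diestrus, and their part in the values of the members was not tested either.

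Other genes of the response were examined as lists. Of 47 further immediate early genes 38, 37 and 37 were tested between the lines in estrus, the lines in diestrus and the stages in FL1 mice, respectively, and 0 passed edgeR's test in each. With DESeq2 1, 0 and 0 passed, with limma-voom 0 in each, and with edgeR but no filter on low counts 1, 0 and 2. At an unadjusted p under 0.05 there were 4 higher and 3 lower in FL1 mice in estrus, 1 higher and 2 lower in FL1 mice in diestrus, and 6 higher and 0 lower in diestrus in FL1 mice. Of all genes 10.7%, 5.56% and 9.48% had such a p in either direction. The list medians were −0.01, −0.11 and 0.07. Among the genes at the low end of p in FL1 mice was Ccn2, a matricellular target of YAP and serum response factor, with 19.3 ± 23.3 CPM in estrus and 94.5 ± 108.2 CPM in diestrus (log2 difference 2.27, unadjusted p = 0.00396, adjusted p = 0.200). In ctrl mice Ccn2 was at 15.8 ± 10.3 and 112.9 ± 48.8 CPM without overlap, as were Ccn1 with 11.7 ± 7.50 and 38.9 ± 8.63 CPM and Hbegf, an EGF receptor ligand, with 9.88 ± 4.85 and 44.1 ± 9.90 CPM, which are described without a test. Ccn1, Ccn2, Hbegf and Myc were chosen after their values were seen. Myc was at 4.40 ± 1.46 CPM in ctrl mice in estrus and 13.3 ± 6.37 CPM in FL1 mice in estrus, again without overlap, but did not pass after adjustment (log2 difference 1.59, adjusted p = 0.271).

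Stage differences of both lines can be set side by side, since they come from different mice. In the 8 members measured in both, the log2 difference between diestrus and estrus was 2.46 in ctrl and 1.17 in FL1 mice for Fos, 1.90 and 0.51 for Egr1, and 0.98 and −0.12 for Jun. With its sign, it was higher in ctrl than in FL1 mice in 6 of the 8, the exceptions being Jund and Ier2, in 24 of 37 further immediate early genes and in 49.5% of 12285 genes. Regardless of sign, Jund (−0.59 and −0.28) and Ier2 (−0.56 and 0.32) had the larger difference in ctrl mice, and Dusp1 (0.55 and −1.17) and Junb (0.27 and −0.45) in FL1 mice. The median of the difference FL1 minus ctrl was −0.91 for the members, −0.22 for the other immediate early genes and 0.0053 for all genes. These values are not tested, because the ctrl contrast was used for the choice. A set built around a gene picked in ctrl mice can show larger values there by the choice alone. Nothing is therefore read from these counts and medians about a difference between the lines.

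**Figure D3:**
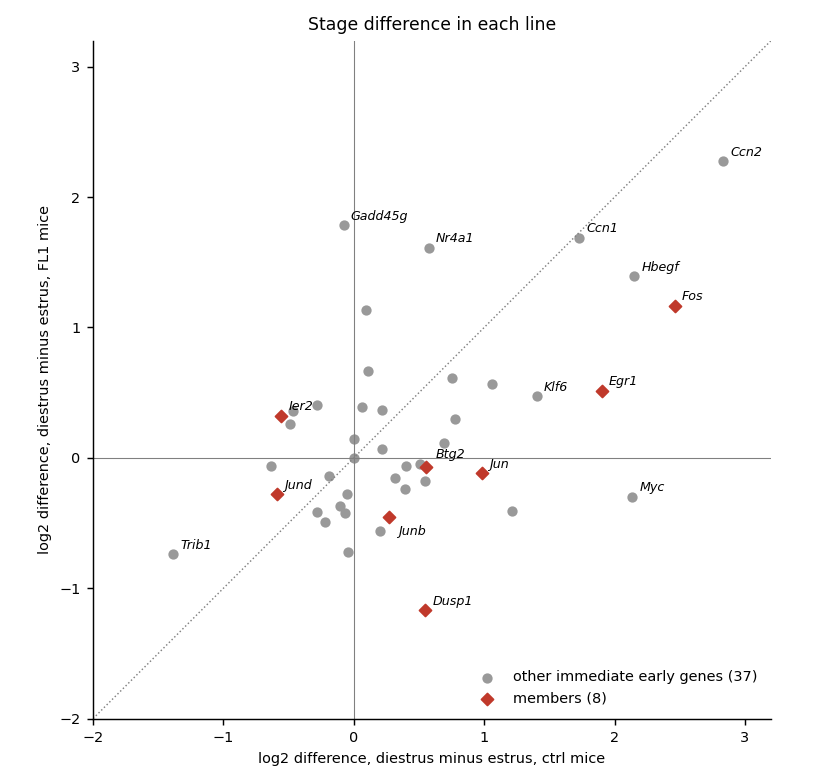
Log2 difference between diestrus and estrus in ctrl mice (x axis) and in FL1 mice (y axis) for 8 members (red diamonds) and 37 other immediate early genes (grey points), with the dotted line marking equal values. Fos at 2.46 and 1.17 and Egr1 at 1.90 and 0.51 lie below the line, as does Myc at 2.13 and −0.30, while Ccn1 at 1.73 and 1.69 lies close to it.

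The regulators upstream of the set were examined next. Of 33 genes for kinases and transcription factors that induce immediate early genes, 31 were tested in each comparison and 0 passed. With an unadjusted p under 0.05 there were 3, 3 and 1, all of them lower in FL1 mice or, between the stages, in diestrus. Of all genes 10.7%, 5.56% and 9.48% had such a p, and these shares also stand beside the 3 lists further below. Between the lines, groups did not overlap for 2 genes lower and 1 gene higher in FL1 mice in estrus, and for 1 gene lower in diestrus. The shares of all genes without overlap were 3.56% and 1.58%. Srf, which encodes serum response factor, was at 19.4 ± 0.991 CPM in ctrl mice and 5.13 ± 3.24 CPM in FL1 mice in estrus without overlap, with a log2 difference of −1.92 and an adjusted p of 0.174. Mrtfa, which encodes a coactivator of serum response factor, was at 23.8 ± 10.8 and 9.49 ± 2.16 CPM in diestrus without overlap (log2 difference −1.31, adjusted p = 0.447). Both were chosen after their values were seen. Of 17 MAPK phosphatases and ERK inhibitors other than Dusp1, 12 were tested and 0 passed in each comparison, with medians of 0.14, 0.11 and −0.10 and with 2, 0 and 0 at an unadjusted p under 0.05. Of 18 other bZIP partners of AP-1, 15 were tested and 0 passed, with medians of 0.02, −0.15 and −0.0043 and with 2, 0 and 2 at an unadjusted p under 0.05. Of 16 heat shock and unfolded protein response genes, all were tested and 0 passed, with medians of −0.38, 0.16 and −0.02 and with 4, 3 and 1 at an unadjusted p under 0.05.

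Among 16 genes listed as targets of the surge of luteinizing hormone, 10 were tested in estrus and 8 in the other 2 comparisons. Areg, Ereg, Ptgs2, Has2, Ptx3 and Sult1e1 did not pass the filter on low counts in estrus. In FL1 mice 3 passed as higher in estrus and 2 as higher in diestrus, against 0.769% and 0.248% of all genes, while 0 passed between the stages in FL1 mice. Star, which moves cholesterol into mitochondria, was at 149 ± 95.2 CPM in ctrl mice and 639 ± 275 CPM in FL1 mice in estrus (log2 difference 2.10, adjusted p = 0.0106), and at 57.8 ± 27.9 and 272 ± 111.5 CPM in diestrus (2.25, adjusted p = 0.00899). Runx2, a transcription factor, differed by 3.57 in estrus (adjusted p = 0.0396) and 4.004 in diestrus (adjusted p = 0.0274) on the log2 scale. Lhcgr, the receptor of luteinizing hormone, differed by 3.02 in estrus (adjusted p = 0.0327) and is also 1 of the luteal markers. The study describes Lhcgr as a target gene of follicle stimulating hormone. With robust estimation 0 genes of these lists passed between the lines in estrus. The medians of the tested targets were 1.36, 0.78 and −1.20, and between the stages in FL1 mice 5 of 8 had an unadjusted p under 0.05, all lower in diestrus, against 9.48% of all genes in either direction.

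To see whether members varied together among mice of the same group, the group means were removed from log2 CPM and the 20 deviations were correlated. Fos and Egr1 had the closest relation of the 9 relations of Fos, with a Pearson r of 0.52 (Spearman rho 0.47) and a positive r in all 4 groups. It did not pass the permutation test (p = 0.0586, adjusted over the 9 relations p = 0.353), and r was 0.30 without the 2 mice farthest from the median of Fos. Fos and Atf3 had an r of −0.48 and Fos and Ier2 an r of −0.47 (both adjusted p = 0.353), the latter −0.15 without the 2 farthest mice. Of the 9 relations 5 were positive and 0 passed.

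Over all 45 pairs, a family added after the data were seen, 30 were positive with a median r of 0.11, and 0 passed the adjustment. The highest was Junb and Btg2 with an r of 0.69 and a rho of 0.67, positive in all 4 groups (permutation test p = 0.00346, adjusted over the 45 pairs p = 0.156). It was 0.72 without the 2 mice farthest from the median of Junb, and 0.63 to 0.77 when each mouse was left out in turn. Next were Egr1 and Dusp1 with an r of 0.56 and Fosb and Jund with an r of 0.55 (both adjusted p = 0.254). The lowest was Jun and Dusp1 with an r of −0.50 (adjusted p = 0.405), which was −0.15 without the 2 farthest mice.

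**Figure D4:**
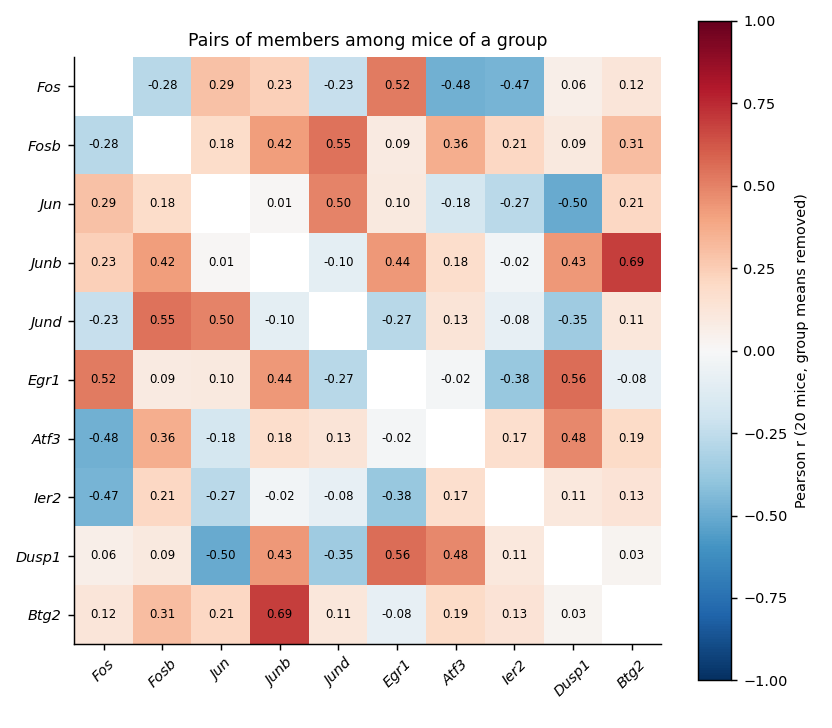
Pearson r of each pair of members over 20 mice after removal of the group means (log2 CPM), from blue for −1 to red for 1. Junb and Btg2 have the highest r with 0.69, and Jun and Dusp1 the lowest with −0.50.

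**Figure D5:**
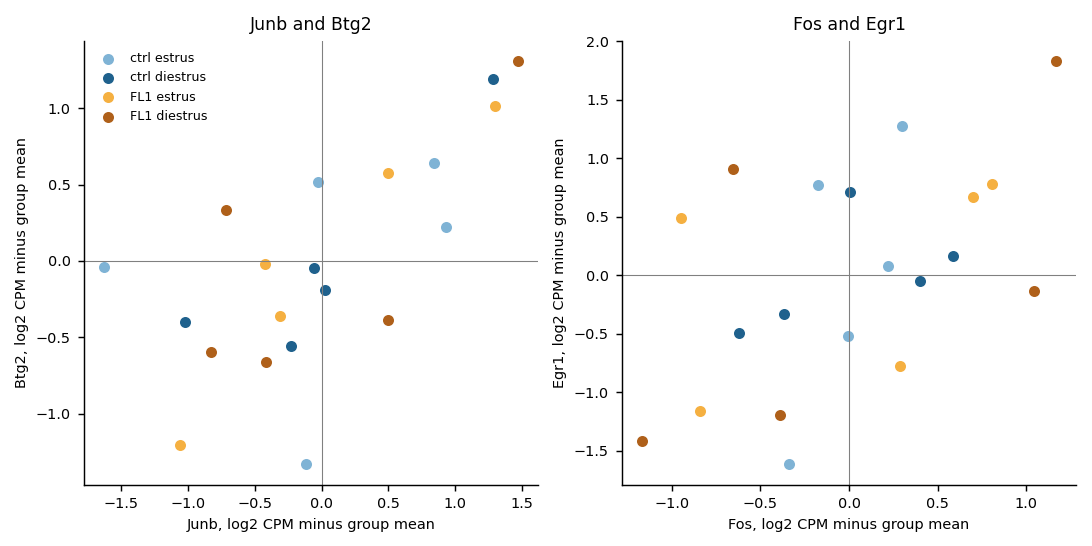
Deviations of log2 CPM from the group mean for Junb against Btg2 (left) and Fos against Egr1 (right), with 1 point per mouse coloured by group. The points of Junb and Btg2 (r 0.69) lie closer to a rising line than those of Fos and Egr1 (r 0.52).

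The genes most like Fos were ranked by Pearson r of log2 CPM over the 20 mice, among 14938 genes that passed the filter over the 4 groups. As this r contains the stage contrast that picked Fos, the r within groups is given beside it, and the genes were selected as the highest of many and have no test. The closest was Adamts5, a protease of the extracellular matrix, with an r of 0.91 over all mice and 0.74 within groups. It was at 41.7 CPM in ctrl mice in estrus, 251 CPM in ctrl mice in diestrus, 58.2 CPM in FL1 mice in estrus and 209.6 CPM in FL1 mice in diestrus. It was followed by Gm13964 (0.88 and 0.67 within groups), Serpinb1a (0.87 and 0.76), Bmp3 (0.86 and 0.61), Clec1a (0.85 and 0.81) and Fshr, the receptor of follicle stimulating hormone (0.85 and 0.51). Fhdc1, Hebp1, Bmpr2 and Tex14 completed the 10, with r of 0.84 to 0.85 and of 0.57 to 0.65 within groups. Among the members, Egr1 was closest to Fos over all mice with an r of 0.73 (0.52 within groups), then Jun with 0.56 (0.29 within groups). Jund (−0.60, and −0.23 within groups) and Atf3 (−0.58, and −0.48 within groups) ran in the opposite direction.

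The mean deviation of the 10 members from their group means was between −0.65 and 0.74 on the log2 scale in the 20 mice. It was highest in FL1 replicate 1 in diestrus, with 8 of 10 members above the group mean, and lowest in FL1 replicate 3 in diestrus, with 1 of 10. The order depended on Fosb and Atf3, which rest on few reads. Over the other 8 members, an average added after the data were seen, FL1 replicate 1 in diestrus was at 0.34, and the highest mouse was FL1 replicate 2 in diestrus with 0.69 and the lowest ctrl replicate 1 in estrus with −0.66. Over the 20 mice and within groups, the mean deviation of the 10 members had an r of −0.62 with the share of reads outside genes (−0.56 for the 8 members), 0.63 with the stromal, pericyte and smooth muscle sums (0.56), 0.64 with the theca and interstitial sums (0.48), 0.61 with the luteal sums (0.62) and −0.50 with the granulosa sums (−0.49). These are the 5 highest in size of 14 measures and are given as a description without a p, since the values share their libraries and the mean is a score over the members. The 10 genes closest to the mean deviation had r of 0.80 to 0.87 within groups and were Anxa2, Spp1, Gpx3, Sparc, Tspan7, Tspan5, Epdr1, Tmem176a, Sgk1 and Pdlim5, again selected as the highest of many. Fos itself had an r of 0.03 to this mean, of which it is a part, and Junb the highest with 0.76.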

How the data were processed

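Counts of 3′ tag reads per gene were deposited by the authors for 20 libraries of GCs (5 mice in each of 4 groups). According to the study's methods a QuantSeq forward kit was used for library preparation, and trimmed reads were aligned with STAR to GRCm38. The strand setting of the counting is not given in the sources used here. Of all reads per file 48.9% to 58.4% were counted on a gene. The remaining 41.6% to 51.1% (unmapped, multimapping, outside genes or ambiguous) were left out of library sizes. Symbols came from GENCODE M21 for 55227 of 55487 identifiers.

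Each comparison was fitted on its 10 libraries with edgeR 4.0.16 (R 4.3.3, TMM, quasi-likelihood test, filterByExpr at min.count 10, min.total.count 15 and min.prop 0.7), and p-values were adjusted over all genes tested (Benjamini-Hochberg, threshold 0.05). This test was chosen in place of the DESeq2 analysis of the study, which was an alternative here. SEs are the log2 difference divided by the square root of F, and 95% CIs use the total degrees of freedom of the fit. CPM were TMM scaled, and log2 CPM used a prior count of 2. Members removed by the filter were compared by an exact permutation test. Relations among mice were tested by 100000 permutations within groups. The members and lists were chosen with earlier results of these data known. Named genes were all members, the called list genes with the lowest p (at most 3 per list, comparison and direction), and the 10 genes most like Fos and most like the mean of the members; others are marked as chosen after their values were seen.

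Alternatives were DESeq2 1.42.0, limma-voom (limma 3.58.1) with sample weights, RLE scaling, no filter, all 20 libraries in 1 fit, robust estimation, blocking on replicate number, and leaving out 1 library at a time. No 2 libraries of a group agreed within sampling noise. Tests were run on simulated data first. Python 3.11.15, SciPy 1.17.1 and matplotlib 3.10.9 served for relations, sequences and figures.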

Additional observations from a re-analysis of the deposited data

Results flagged for a closer look

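In 40 sets of 5 values (10 members in 4 groups), the highest or lowest mouse was set apart from the other 4 by more than Dixon's critical value allows in 5 sets, where chance gives about 1 in 20 for normally distributed values. The CPM of Fosb and Atf3, with many values of 0, are not of this kind. Ier2 in FL1 mice in diestrus was at 0.855 CPM (5 reads) in replicate 5, against 30.4 CPM in the next mouse. Junb was at 100.4 CPM in ctrl replicate 4 in diestrus, against 41.9 CPM in the next mouse, and Btg2 in the same mouse was at 115.3 CPM against 48.5 CPM. Mitochondrial transcripts took 21.3% of the gene reads of this library, the highest share of the 20. Fosb was at 3.60 CPM in FL1 replicate 1 in diestrus (23 reads), against 0.961 CPM in the next mouse. Atf3 was at 1.60 CPM in ctrl replicate 3 in diestrus (12 reads), with no read in the other 4 mice. The reasons for these values were not tested.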

How the results depend on the processing

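No member passed the test in any of the 51 alternative fits of the 3 tested comparisons, and the smallest adjusted p was 0.0681, for Dusp1 between the lines in estrus with no filter on low counts. The shares of all genes called were 0.769% between the lines in estrus (100 genes), 0.248% between the lines in diestrus (32), 0.221% between the stages in FL1 mice (29) and 1.36% in ctrl mice (175). They moved to 1.83% (422 genes), 0.499% (118), 1.12% (264) and 2.28% (525) with DESeq2 and to 1.55% (373), 0.439%, 1.23% (299) and 1.45% (348) without the filter. Between the stages in FL1 mice they were 0.991% (130) with limma-voom and 0.435% (65) with all 20 libraries in 1 fit. Leaving out 1 library gave 0.490% to 0.966%, 0.158% to 0.237%, 0.0958% to 1.31% and 0.583% to 1.31%. The counts moved by over 1.5 times without FL1 replicate 1 in estrus (66 between the lines), without FL1 replicate 4 in diestrus (21 between the lines), between the stages in FL1 mice without each of replicates 1 to 5 in diestrus (178, 18, 13, 14 and 14), and between the stages in ctrl mice without each of replicates 2, 3 and 4 in estrus (88, 91 and 100) and of replicates 3 and 5 in diestrus (77 for the latter). Called genes of the lists, 3, 2 and 0 in the tested comparisons, became 6 and 3 (lines in estrus and stages in FL1 mice) with DESeq2, 10, 5 and 8 without the filter, 1 (stages in FL1 mice) with limma-voom or with all 20 libraries, 0 (lines in estrus) with robust estimation, and 1 to 4, 1 to 2 and 0 to 2 without 1 library. The cause was not tested.

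Of 759 values of single members under alternatives, 21 changed sign in the tested comparisons and relations, and none changed its side of the threshold. The stage difference of Junb in ctrl mice, not tested, ranged from −0.19 to 0.52 without 1 library. With limma-voom Ier2 was at −0.34 and Dusp1 at −0.061 between the lines in diestrus, and Ier2 at −0.074 between the stages in FL1 mice. Without 1 library, log2 differences that changed sign ranged from −0.055 to 0.64 for Junb between the lines in estrus, and in diestrus from −0.87 to 0.15 for Junb, −0.064 to 0.18 for Jund, −0.10 to 0.80 for Dusp1 and −0.37 to 0.55 for Btg2. Between the stages in FL1 mice they ranged from −0.23 to 0.0031 for Jun, −1.01 to 0.000018 for Junb, −0.15 to 0.76 for Egr1 and −0.56 to 0.23 for Btg2. The r of Fos within groups ranged from −0.042 to 0.14 with Dusp1 and −0.078 to 0.29 with Btg2, and 0 relations of Fos passed in any setting.

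The replicate numbers do not pair the mice. Deviations of same-numbered libraries correlated between −0.12 and 0.12. With the replicate number as a block 58 (0.446%), 13 (0.101%), 28 and 158 genes were called and 2, 0 and 0 list genes in the tested comparisons, and no member.

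Fosb and Atf3 rest on at most 29 reads per library, and no limit of detection was computed for them. The wide intervals of Dusp1, Egr1 and Ier2 allow differences in either direction in diestrus. Stage was read from smears, and follicles of a mouse were pooled.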
